A study of Homo sapiens with 6 samples.

Results

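Myc binding was examined at the 7 human genes that encode La-related proteins, LARP1, LARP1B, LARP4, LARP4B, LARP6, LARP7 and SSB, out of 20162 protein-coding genes with an annotated transcription start site (TSS). The family was chosen by a measured value, the rank of a site in LARP1 by the authors' fold enrichment, so the rank and strength of that site are given as a description and not tested. A peak was assigned to a gene when its summit lay within 5 kb of a TSS of a basic GENCODE transcript. The data are Myc chromatin immunoprecipitation sequencing (ChIP-seq) libraries from MDA-MB-231, a human triple-negative breast cancer cell line. Unedited parental cells were compared with TKO cells, the same line with TXNIP (thioredoxin interacting protein) knocked out by CRISPR/Cas9 and recovered from single-cell clones. There were 2 Myc libraries per cell line, described as biological replicates, and 1 input chromatin sample for each line. The comparison asks what the loss of TXNIP does to Myc binding. In this design TXNIP loss cannot be told apart from the editing and the single-cell cloning. The lists hold binding positions and no RNA levels, so the knockout and the cell type could not be checked in them.

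All members share the La motif, an RNA-binding unit that often stands next to an RNA recognition motif. SSB (La) binds the oligouridine ends of new RNA polymerase III transcripts, and LARP7 holds the 7SK RNA that restrains the elongation kinase P-TEFb. LARP1 binds the cap and the terminal oligopyrimidine tract of mRNAs for ribosomal proteins and translation factors, under control of mTORC1, and LARP1B is its paralog. LARP4 and LARP4B bind poly(A) or A- and U-rich RNA together with poly(A)-binding protein, and LARP6 binds the stem-loop of collagen mRNAs. Myc binds DNA with its partner Max at E-boxes, of which CACGTG is the canonical form and CACGCG a known variant. It is best known for driving genes of ribosome production and translation.

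The parental lists held 3720 and 5719 peaks and the TKO lists 27213 and 25887. The reads behind each summit were recovered from the deposited values, which put the depth of parental replicates 1 and 2 at 26.4 M and 22.2 M reads and that of TKO replicates 1 and 2 at 19.9 M and 13.0 M reads. Summit reads divided by this depth in M are given as RPM, reads per M reads of the library. Counting intervals below are exact Poisson intervals and cover counting error only.

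LARP1 carried 2 sites that were called in all 4 libraries, and their sequences differ in the motif at the summit. LARP1 lies on chromosome 5 (GRCh37, plus strand, chr5:154062546-154197165) and has 5 basic start sites spread over 74314 bp. The upstream promoter site has its summit before the first start site, outside any LARP1 exon. The internal site lies in an intron of LARP1, between the third and the fourth start sites, which are 803 bp apart. Its summits lay 377 to 454 bp after the third start site, so it too is close to annotated start sites. Both stretches are shown because they cover the summits of all 4 libraries. They read 5′ to 3′ on the plus strand, and capitals mark CACGTG or the variant CACGCG, which reads as CGCGTG on the other strand.
LARP1 upstream promoter, chr5:154062109-154062282: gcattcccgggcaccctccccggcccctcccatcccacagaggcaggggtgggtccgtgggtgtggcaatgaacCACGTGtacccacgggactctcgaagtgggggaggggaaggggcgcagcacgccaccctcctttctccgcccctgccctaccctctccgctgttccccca
LARP1 internal site, chr5:154134451-154134688: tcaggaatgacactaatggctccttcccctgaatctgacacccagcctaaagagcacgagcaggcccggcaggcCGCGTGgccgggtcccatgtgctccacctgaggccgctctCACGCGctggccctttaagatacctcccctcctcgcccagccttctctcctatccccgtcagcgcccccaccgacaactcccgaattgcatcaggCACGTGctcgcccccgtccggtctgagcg

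The strongest member site thus had no canonical E-box at its summit, while the weaker upstream LARP1 site did. At the upstream promoter the single CACGTG lay 16 bp after the summit of parental replicate 1 and at -18, -37 and -28 bp in parental replicate 2 and TKO replicates 1 and 2. At the internal site the nearest CACGTG was 127, 74, 151 and 133 bp downstream of these summits, outside the 50 bp window in every library. A CGCGTG lay within 16 bp of the summit in 3 of the libraries, at -8 bp in parental replicate 1 and at 16 and -2 bp in TKO, and 61 bp upstream in parental replicate 2. The other variant, CACGCG, was 32 bp away in parental replicate 1, -21 bp in parental replicate 2, and 56 and 38 bp away in TKO. Distances run from the summit to the third base of the motif. For scale, 22.4% and 18.4% of all peaks within 5 kb of a protein-coding TSS had a CACGTG within 50 bp of the summit in parental replicates 1 and 2, and 8.48% and 7.34% in TKO. Windows centred 1 kb to either side held one in 1.38% to 1.60% of cases. Among the 100 such peaks of highest fold, 51, 53, 32 and 38 had the motif in the same order of libraries, so a strong peak without it is common.

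The internal LARP1 site had the highest fold of 3 lists and the third highest of the other. Its peak ranked 3 of 3720 in parental replicate 1, 1 of 5719 in parental replicate 2, 1 of 27213 in TKO replicate 1 and 1 of 25887 in TKO replicate 2. The description that chose the family, first rank in every list, therefore did not hold for parental replicate 1. Ranked by −log10 p-value, which weighs the number of reads more, the peak stood at 8, 3, 3 and 4. Summits of the 4 libraries fell within 77 bp of each other. The site as a whole covered chr5:154133782-154134832.

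Reads at the internal site were higher in both TKO libraries. The summits held 100 reads (95% interval 81.4 to 121.6) in parental replicate 1, 95 (76.9 to 116.1) in parental replicate 2, 192 (165.8 to 221.2) in TKO replicate 1 and 155 (131.6 to 181.4) in TKO replicate 2. Scaled to depth these were 3.78, 4.28, 9.63 and 11.9 RPM. The means were 4.03 ± 0.352 (SD, n = 2) in parental and 10.8 ± 1.60 (SD, n = 2) in TKO cells, a ratio of 2.67. The groups did not overlap, and no test is given because this site chose the family. Over the 2631 sites that all 4 lists shared, the median of this ratio was 2.40, with quartiles of 2.05 and 2.75, so LARP1 lay within the middle range of sites. Reads were extended to 140 and 151 bp in parental and to 182 and 201 bp in TKO libraries, and longer extension adds reads at a summit. Scaled to the shortest extension, the ratio was 2.02. The median and quartiles over shared sites were not scaled in this way, so 2.02 cannot be set against them.

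**Figure D1:**
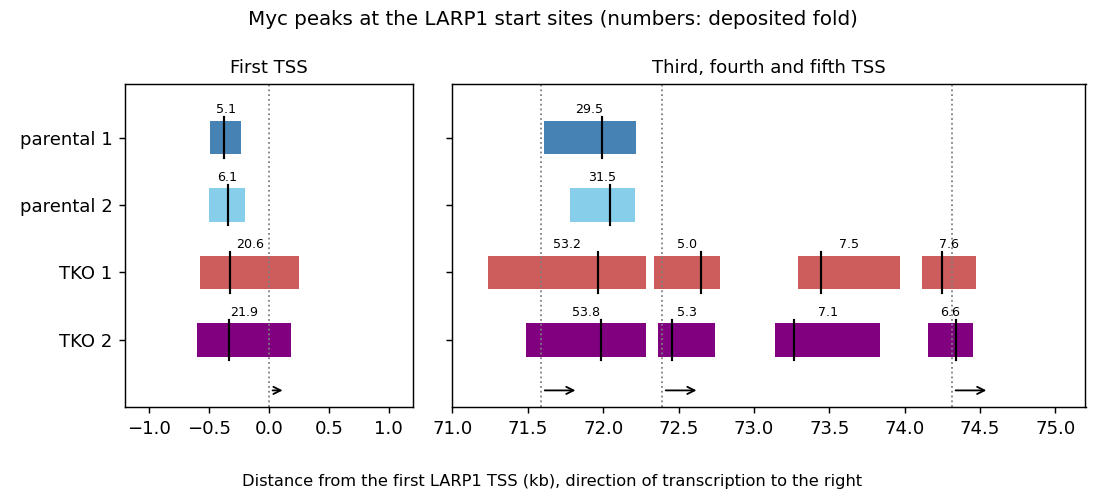
Myc peaks around the LARP1 start sites in each library. The horizontal axis is the distance in kb from the first LARP1 TSS, bars are peaks, black lines are summits, numbers are the authors' fold, dotted lines are start sites and arrows give the direction of transcription. The upstream promoter and the internal site carry a peak in all 4 libraries, and the 3 peaks to the right of the internal site are in the TKO libraries only.

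The upstream LARP1 promoter rose in step with the internal site by reads, but not by fold. Its summits lay between -377 and -324 bp from the first start site. They held 48 (95% interval 35.4 to 63.6) and 42 (30.3 to 56.8) reads in parental replicates 1 and 2. In TKO replicates 1 and 2 they held 86 (68.8 to 106.2) and 72 (56.3 to 90.7). Scaled to depth these were 1.82, 1.89, 4.31 and 5.52 RPM, with means of 1.85 ± 0.0542 (SD, n = 2) and 4.92 ± 0.856 (SD, n = 2) and a ratio of 2.65. Both TKO libraries were above both parental libraries. The median ratio over the 2631 sites shared by all 4 lists was 2.40, with quartiles of 2.05 and 2.75, so this promoter also lay in the middle range. The exact two-sided permutation test gave p = 0.333, the smallest that 2 libraries against 2 allow, so this test cannot pass 0.05 here. In each library the internal site held between 2.08 and 2.26 times the reads of the upstream promoter, so the proportion between both sites was nearly constant. This proportion carries the counting error of both sites, and shared sites in general rose by a like ratio.

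By fold the difference at this promoter was larger. Its fold was 5.15 and 6.13 in parental and 20.6 and 21.9 in TKO replicates. The TKO mean was 3.77 times the parental mean, with p = 0.333 by the exact permutation test. Its percentile, the share of other peaks of a list that it exceeded, was 41.7 and 69.8 in parental and 99.0 and 99.4 in TKO. These are ranks 2168 of 3720 and 1729 of 5719 in parental and 270 of 27213 and 152 of 25887 in TKO, and percentiles of lists so unequal in length are not on the same footing. For the internal site, the fold was 29.5 and 31.5 in parental and 53.2 and 53.8 in TKO, a ratio of 1.76. Fold is the summit reads plus 1 over the local background plus 1, after both were multiplied by a library scale of 0.837 and 0.997 in parental replicates 1 and 2 and of 1 in TKO. The local background at the upstream promoter was 8.36 and 6.02 reads in parental against 3.23 and 2.33 reads in TKO replicates. At the internal site the background was 2.24 and 2.04 reads in parental and 2.63 and 1.90 reads in TKO replicates. The upstream background stood at 6.10 and 4.85 times the genome-wide floor of the parental libraries and at 2.40 times that of both TKO libraries. The internal background stood at 1.63 and 1.65 times the floor in parental and at 1.96 times in both TKO libraries, so it differed in the other direction. The part of the input chromatin in this difference was not tested; both libraries of a cell line share 1 input. The internal site therefore exceeded the upstream promoter by 5.72 and 5.14 times in fold in parental cells and by 2.59 and 2.46 times in TKO.

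**Figure D2:**
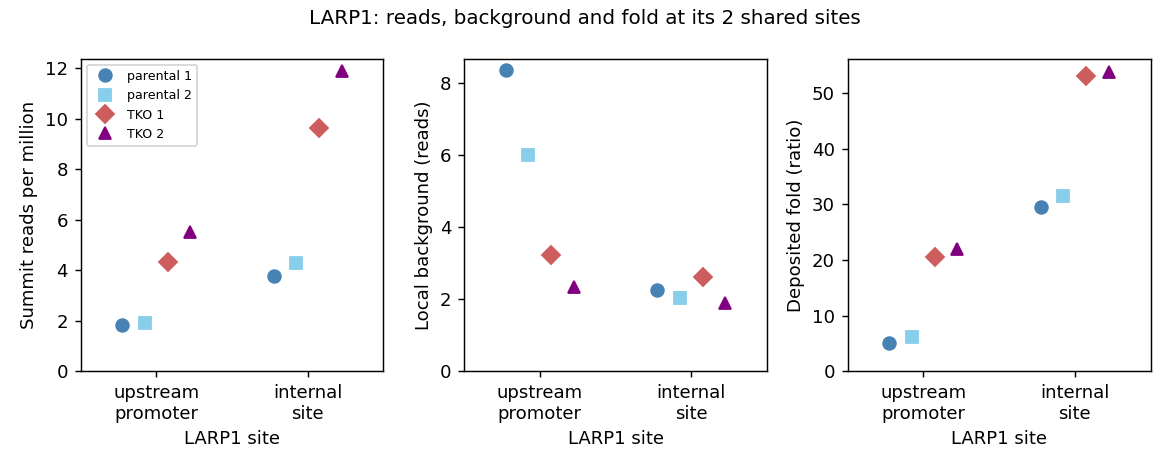
Summit RPM, local background in reads, and the authors' fold at the upstream promoter and the internal site of LARP1. Each point is 1 library. Reads rise alike at both sites in TKO cells, the background at the upstream promoter is 8.36 and 6.02 reads in the parental libraries against 3.23 and 2.33 in TKO, and the fold follows both.

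LARP1 gained 3 further sites in TKO cells, all downstream of the internal site and within 3 kb of it. Parental libraries had 2 peaks each near LARP1 start sites and TKO libraries 5 each (exact permutation p = 0.333). The internal site, which chose the family, is among them in every library and adds nothing to the difference. Peaks within 5 kb of any protein-coding TSS rose relatively more, from 2465 and 2809 in parental to 14730 and 14524 in TKO replicates. The new sites covered chr5:154134883-154135324, chr5:154135687-154136516 and chr5:154136659-154137018 and were called in both TKO and in neither parental library. Their summits in the TKO libraries lay 193, 180 and 90 bp apart, so only the last site is reproduced when summits must lie within 100 bp. The first overlapped the leader exon of the transcript from the fourth start site, and the last overlapped the fifth start site, with summits at -66 and 24 bp. These peaks were weak beside their neighbour, with folds of 5.00 to 7.56 and summits of 14 to 31 reads. None had a CACGTG anywhere in the peak. The second start site, which begins 29857 bp downstream of the first, had no peak nearby in any library: the nearest summits were 30234 and 30200 bp away in parental and 21120 and 21102 bp away in TKO. Peaks were also wider in TKO cells. The upstream promoter peak spanned 258 and 305 bp in parental and 826 and 789 bp in TKO, a ratio of means of 2.87, and the internal peak 612 and 437 bp against 1046 and 800 bp, a ratio of 1.76. The median width ratio over all shared sites was 2.46, with quartiles of 1.89 and 3.34, and extension length differs between the cell lines as given above.

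Of the 6 members other than LARP1, 3 and 0 had a peak in parental replicates 1 and 2 and 5 and 4 in TKO replicates 1 and 2. With LARP1 included, parental replicates 1 and 2 had a peak at 4 and 1 of the 7 genes, and TKO replicates 1 and 2 at 6 and 5. Of all protein-coding genes, 13.9% and 15.5% had a peak in the parental lists and 54.5% and 55.4% in the TKO lists. The means for the family were 2.5 ± 2.12 (SD, n = 2) and 5.5 ± 0.707 (SD, n = 2) genes, a difference of 3 (exact permutation p = 0.333). Without LARP1 the difference was also 3. The family's peaks numbered 5, 2, 13 and 10 in the same order of libraries, so TKO libraries had 3.29 times as many on average, with p = 0.333 by the exact permutation test. Without LARP1, whose internal site chose the family, they numbered 3, 0, 8 and 5, a ratio of means of 4.33. All peaks within 5 kb of a protein-coding TSS numbered 2465, 2809, 14730 and 14524 in that order, a larger relative rise than the family's. The count in parental cells rests on replicate 1: without replicate 2 the difference in genes was 1.5, and without replicate 1 the ratio of peaks was 5.75. With every list shortened to its 3720 peaks of highest fold, parental replicate 1 and both TKO replicates held the same 4 genes, LARP1, LARP4, LARP7 and SSB, and parental replicate 2 only LARP1. LARP1 alone had a peak in all 4 lists, as did 10.9% of protein-coding genes. LARP1B alone had a peak in both TKO and in neither parental list, as did 32.4%, and LARP6 alone had none, as did 40.6%.

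**Figure D3:**
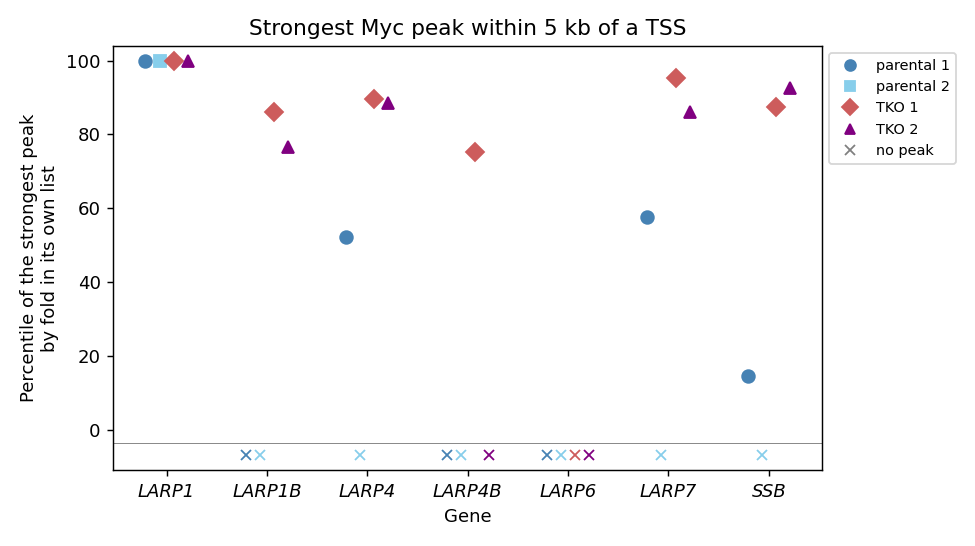
Percentile by fold of the strongest peak of each La-related protein gene within its own list. Points are libraries, and crosses below the line mark a library without a peak within 5 kb of a TSS. LARP1 sits at 99.9 or above in every list, LARP4, LARP7 and SSB have a point in parental replicate 1 and in both TKO libraries, and LARP6 has none.

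LARP7, the 7SK RNA partner, had 1 site close to a start site, called in 3 libraries. The gene is on chromosome 4 (plus strand, chr4:113558276-113578748), and its summits lay 1, 9 and 13 bp from a TSS in parental replicate 1 and TKO replicates 1 and 2, in the 5′ leader, with no peak in parental replicate 2. All 3 summits fell within 12 bp. They held 30, 46 and 25 reads, or 1.14, 2.31 and 1.92 RPM, so the TKO mean of 2.11 ± 0.275 (SD, n = 2) was 1.86 times the value of parental replicate 1. The peaks ranked at percentiles 57.7, 95.2 and 86.0. ZGRF1, a helicase gene, starts on the opposite strand 210 bp from a LARP7 start site, so the peak cannot be given to LARP7 alone.

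SSB, which encodes La itself, had the highest ratio of TKO to parental replicate 1 reads of the 3 members with a peak in these lists. On chromosome 2 (plus strand, chr2:170655381-170668574), its main summit lay 45, 107 and 96 bp after a TSS in parental replicate 1 and TKO replicates 1 and 2, and parental replicate 2 had no peak. The summits held 18 reads (95% interval 10.7 to 28.4), 53 (39.7 to 69.3) and 45 (32.8 to 60.2), or 0.681, 2.66 and 3.45 RPM. The TKO mean of 3.05 ± 0.562 (SD, n = 2) was 4.48 times the parental value. The parental peak ranked 3176 of 3720, at percentile 14.6 and with a −log10 q-value of 3.34. The TKO peaks ranked 3434 of 27213 and 1946 of 25887, or percentiles 87.4 and 92.5, so the percentiles differ far more than the ranks because the TKO lists hold more peaks. A second SSB site, chr2:170655806-170656105, was called in TKO replicate 1 alone, with 23 reads.

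LARP4, the poly(A)-binding protein partner, showed the same pattern of libraries. On chromosome 12 (plus strand, chr12:50794592-50873787), summits fell in coding sequence, an intron and the 5′ leader and lay 29, 115 and 10 bp after a TSS in parental replicate 1 and TKO replicates 1 and 2. They held 26, 49 and 35 reads, or 0.984, 2.46 and 2.68 RPM, and the TKO mean of 2.57 ± 0.161 (SD, n = 2) was 2.61 times the parental value. Percentiles were 52.2, 89.7 and 88.4. Its peaks widened from 228 bp in parental replicate 1 to 906 and 748 bp in TKO. For comparison, over 602 genes with a peak in these 3 lists and none in parental replicate 2, the median ratio of reads was 2.41, with quartiles of 2.08 and 2.80. LARP4 lay between those quartiles, LARP7 below and SSB above them. With 1 parental library these ratios have no replicate check, and neither they nor the median were scaled for the extension length.

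LARP4, LARP7 and SSB, which had no peak in parental replicate 2, had folds of 5.58, 5.81 and 4.02 in parental replicate 1. The median fold of that list was 5.48, so only SSB lay below it. Of all 1430 parental replicate 1 peaks near a protein-coding TSS with a fold under 6, 916 (64.1%) were overlapped in parental replicate 2, against 870 of 1035 (84.1%) with a fold of 6 or more. What sets the absence of these 3 genes was not tested.

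LARP1B, the LARP1 paralog, had peaks in TKO cells only. On chromosome 4 (plus strand, chr4:128982441-129133143), 2 sites were called in both TKO and in neither parental library, chr4:128981898-128982576 around its start sites and chr4:128983291-128983622 in an intron just after the last of them. At the first site TKO replicate 1 had separate summits at -440 and -4 bp, of 25 and 17 reads, and TKO replicate 2 a single summit at 2 bp, of 22 reads. At the second the summits lay 217 and 174 bp after a TSS, with 18 and 16 reads. The strongest peak of each list ranked at percentiles 86.1 and 76.7 and differed in place, upstream in replicate 1 and intronic in replicate 2.

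LARP4B and LARP6 were the least bound members. LARP4B (chromosome 10, minus strand, chr10:855437-977645) had 1 peak in 1 library, chr10:977975-978215 in TKO replicate 1, with its summit at -447 bp, 19 reads (95% interval 11.4 to 29.7) and percentile 75.3. LARP4B-DT, a noncoding gene, also starts within 1 kb of this summit. LARP6, the collagen mRNA binder (chromosome 15, minus strand, chr15:71121469-71146496), had no summit within 5 kb in any list. The nearest were 378044 and 239334 bp away in parental and 38377 and 23804 bp away in TKO. The window did not decide any of these calls. The farthest assigned summit was 873 bp from a TSS, and the closest one left out was 8737 bp from a LARP1 TSS, at percentile 40.3 of TKO replicate 1, followed by one 9762 bp from a LARP4B TSS at percentile 12.4.

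**Figure D4:**
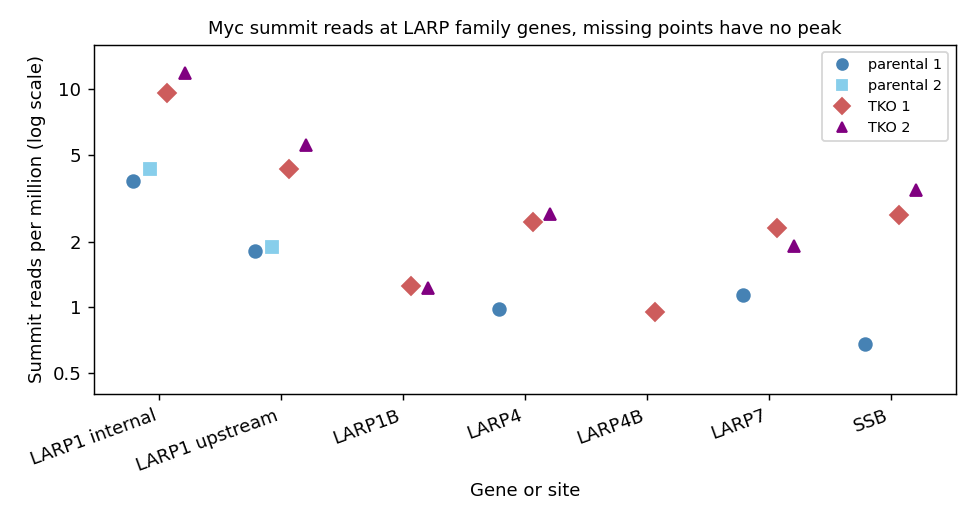
Summit reads as RPM (reads scaled to library depth), on a log scale, at both LARP1 sites and at the peak of highest fold of the other bound members. Each point is 1 library, and a missing point means that the library had no peak. The internal LARP1 site is highest in every library, from 3.78 to 11.9, and LARP1B and LARP4B are the lowest of the TKO values, between 0.953 and 1.25.

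No family member other than LARP1 had a canonical E-box in any of its peaks, and most peaks near a protein-coding TSS had none: the motif lay anywhere in 33.6% and 29.9% of them in parental replicates 1 and 2 and in 19.7% and 18.6% in TKO. Of the 16 strongest peaks per gene and library, 0 had a CACGTG within 50 bp of the summit, and of all 30 assigned peaks the 4 at the upstream LARP1 promoter did. A site called in several lists counts once per list here, so these peaks are not independent. Variant motifs were present in 4 of the other genes, and they are shown with 12 bases on either side, on the strand of the gene, capitals marking CACGCG or CGCGTG.
LARP7, chr4:113558540-113558569: gttatctatgcgCACGCGcaaaagtcttcg
LARP1B, chr4:128983429-128983458: gggacttgccggCGCGTGgcggcggtagcg
LARP4B, chr10:978013-978042: ctttaaggggcgCACGCGgtggcggaggac
SSB, chr2:170655610-170655639: caggccgagcgcCGCGTGggccgcagccgg
In LARP7 the motif lay at -59, -67 and -71 bp from the summits of parental replicate 1 and TKO replicates 1 and 2. In LARP1B it was at -40 bp in TKO replicate 1 and 3 bp in TKO replicate 2, in LARP4B 65 bp away, and in SSB 136 and 147 bp away in TKO. Among all peaks near a protein-coding TSS, CACGTG or the variant lay within 50 bp of the summit in 35.1% and 29.2% of parental and 16.2% and 14.7% of TKO peaks. Of the genes shown here, only LARP1B had the variant that close to a summit. The share of all peaks with the variant anywhere in the peak was not counted, so its presence in the other genes has no scale. The share of G and C in the 30 peaks was 51.7% to 76.1% within 100 bp of the summit, where the median of such peaks was between 62.2% and 63.7%. A motif match describes the letters and not a measured contact.

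Across the family the internal LARP1 site came first in RPM in every library and the upstream LARP1 promoter second. In TKO cells SSB at 3.05, LARP4 at 2.57 and LARP7 at 2.11 followed, with values of 2.66 and 3.45, 2.46 and 2.68, and 2.31 and 1.92 in the single libraries. SSB was above LARP4 in each TKO library, but their ranges over these libraries overlapped, so their order is not beyond the spread. LARP7 was below both in each TKO library, and its range did not overlap theirs. No order was tested. LARP1B and LARP4B came last, LARP1B with 1.25 and 1.23 at its peaks of highest fold (its peak with most reads in TKO replicate 2 had 1.69) and LARP4B with 0.953. In parental replicate 1 LARP7 came before LARP4 and SSB, at 1.14, 0.984 and 0.681. The strongest peaks of the 5 other bound members in TKO replicate 1 and of the 4 in TKO replicate 2 had median percentiles of 87.4 and 87.2. Over all protein-coding genes with a peak, the median percentile was 71.8 and 71.2 in these lists, and 56.8 in parental replicate 1, where LARP4, LARP7 and SSB had a median of 52.2.

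The genes whose rank was most like that of LARP1 were found from the lowest of the 4 percentiles of a gene's strongest peak. By this measure LARP1, at 99.95, came after G6PC3 and LSM12, both at 99.97. G6PC3, a glucose-6-phosphatase subunit gene, and its neighbour LSM12 share a single peak (chr17:42147774-42148646) that ranked 1, 2, 9 and 3 in parental replicates 1 and 2 and TKO replicates 1 and 2. SNX5, a sorting nexin gene, and MGME1, a mitochondrial exonuclease gene, share another (chr20:17948473-17950333), at ranks 2, 4, 28 and 11. The readthrough gene XNDC1N-ZNF705EP-ALG1L9P followed at ranks 4, 3, 19 and 45. The peaks of the G6PC3 and SNX5 pairs had a CACGTG within 50 bp of the summit in TKO replicate 1, and that of XNDC1N-ZNF705EP-ALG1L9P, like LARP1, had none.

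Genes of known partners of the family, a list chosen with results of these data known, were also examined. Of 20 partner genes, 9 and 9 had a peak in the parental lists and 17 and 18 in the TKO lists. The shares of all protein-coding genes were 13.9% and 15.5% in parental and 54.5% and 55.4% in TKO. In the 7SK complex, 3 and 3 of 6 genes had a peak in parental and all 6 in both TKO lists. In the same order, 2, 2, 3 and 3 of 3 poly(A)-binding and ribosome contacts had one, and likewise of 3 cap-binding factors. The counts were 1, 0, 2 and 2 of 3 for mTORC1 and 1, 2, 3 and 4 of 5 for Ro and collagen partners. MEPCE, which caps 7SK RNA, ranked at percentiles 87.98, 88.6, 94.95 and 93.4. PABPC1, the cytoplasmic poly(A)-binding protein, stood at 85.1, 92.0, 99.6 and 99.2, and RACK1, a ribosomal scaffold protein, at 67.8, 64.8, 96.4 and 98.6. Among cap-binding factors, the helicase EIF4A1 ranked at 98.5, 99.6, 99.6 and 99.6 and EIF4E at 30.3, 11.9, 98.8 and 98.4. RO60, which binds small RNAs together with La, stood at 69.3, 70.3, 65.0 and 91.7. MTOR, the kinase upstream of LARP1, and COL3A1, a collagen gene, had no peak in any list. Percentiles depend on list length, which differs between the cell lines.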

How the data were processed

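The 4 processed files hold 1 MACS2 peak list for each of the 4 Myc libraries, and inputs had no list analysed here. The labels name Novoalign 3.08.02, MACS2 2.1.1.20160309 and hg19, and per the methods peaks were called per library against input. Each deposited list gives position, summit, the authors' fold enrichment (a ratio), −log10 p-value, −log10 q-value and a score, which was not used, and the lowest −log10 q-value of a list was 2.03 to 2.07. GRCh37 and GENCODE v44 lifted to it served for sequence and start sites. Summit reads and background were solved from the deposited fold and p-value as whole reads, matching within 0.002 for 100% of peaks. Depth assumes 2700000000 bases of genome and an extension equal to the narrowest peak. The steps were tested on simulated data. Groups came from titles, and libraries were compared by exact permutation tests. Members, partner genes and all rules were chosen with earlier results of these data known. The text names all members, the 5 genes most like LARP1 and 6 partners with a peak in all lists by highest mean percentile, plus MTOR and COL3A1, which had none, and HEXIM1 and RPTOR, named after their values were seen. Alternatives were TSS windows of 1 and 10 kb, all transcripts, a −log10 q-value or fold of at least 5, equal list lengths, other rankings, motif windows and overlap rules, each library left out and a replicate block. Tools were samtools 1.23.1, pysam 0.24.0 for sequence, scipy 1.17.1 and numpy 2.4.6 for tests, pandas 2.3.3 for tables and matplotlib 3.10.9 for plots, under Python 3.11.15.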

Additional observations from a re-analysis of the deposited data

How the results depend on the processing

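Recomputed under other settings, 51 values counted as the same, 19 moved and 1 reversed. The same meant within 1.5 times the main value or, for reads and ranks, within the SD of library pairs or lists. Some could not move, such as the TKO ranks without a parental library and the E-box count of 0 with a library left out. With equal list lengths the difference in genes with a peak was 1.5 and the ratio of peaks 1.43, since the TKO lists lose most of their peaks. The library left out moved the difference in genes between 1.5 and 4.5, the ratio of peaks between 2.3 and 5.75, the shared sites between 2 and 5 and the TKO-only sites between 5 and 8. Without parental replicate 2, 5 sites were shared, and without parental replicate 1 or TKO replicate 2, 8 were TKO-only. The ratios of reads at LARP1, 2.67 at the internal site and 2.65 upstream, were 2.02 and 2.01 at the shortest extension and 1.76 and 3.77 by fold, an alternative chosen after the data were seen, as was leaving out LARP1. Taking the LARP1 peak nearest to a TSS reversed the ratio to 0.895, since it sets the upstream promoter in parental cells against the weak peak at the fifth start site in TKO. By −log10 p the mean LARP1 percentile was 99.94 against 99.99. The E-box count of 0 became 1 at 100 bp, 4 over whole peaks, 5 with the variant and 4 over every peak. With sites defined by summits within 100 bp, 3 were TKO-only. Replicate numbers did not pair the libraries, whose deviations correlated at 0.0127 over 2631 sites. In the replicate block the difference in genes was 3, the ratio of peaks 3.8 and the ratios of reads at LARP1 2.66 and 2.65. The exact permutation test of 2 libraries against 2 cannot pass 0.05.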

Other observations

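Outside the 5 kb window, LARP1 had a further peak in TKO replicates 1 and 2 but not in parental cells, 8737 and 8755 bp from its first start site, at percentiles 40.3 and 24.1. HEXIM1, the protein that inhibits P-TEFb on 7SK RNA, ranked at 19.3 and 31.0 in parental and 73.3 and 55.9 in TKO replicates, below EIF4E, the cap-binding factor, in TKO at 98.8 and 98.4. RPTOR, the mTORC1 subunit that LARP1 contacts, had a peak in parental replicate 1, at percentile 16.6, and in both TKO lists, at 77.9 and 68.0. HEXIM1 and RPTOR were named after their values were seen.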
